A study of Mus musculus with 4 samples.

Results

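The difference between the 2 differentiation responses of cultured mouse myoblasts, one measured with forced Twist2 and the other with a control virus, was computed for each of the 3760 genes of the authors' deposited table, so all 3760 of 3760 listed genes are described. A response is the log2 ratio of differentiation medium to growth medium in read counts scaled to library size (CPM) with a pseudocount of 1 CPM. The difference is the response of the Twist2 cells minus that of the GFP cells, so a value of 1 stands for a ratio that was 2-fold larger with Twist2. No measured value was used to choose the genes beyond the authors' own selection, which required a 2-fold ratio against the GFP growth medium library.

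The cells were myoblasts, labelled Twist2-positive, cultured from skeletal muscle of adult C57BL/6 mice. They were infected for 24 h with a retrovirus carrying GFP alone or Twist2-IRES-GFP, so that both arms carried green fluorescent protein, and were then kept for 24 h in growth medium with 20% serum. Cells were collected at that point or after 5 days in differentiation medium with 2% horse serum. The 4 groups, GFP growth, GFP differentiation, Twist2 growth and Twist2 differentiation medium, had 1 library each, with 9235281 to 12362290 reads. No difference given here therefore has a replicate check, no p-value is given, and an effect of a library cannot be told apart from an effect of its condition. The 95% intervals given below cover counting error only.

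Twist2 is a basic helix-loop-helix transcription factor that binds E-boxes, the same class of short DNA sites that the muscle factors MyoD and myogenin use, and it is known as an inhibitor of muscle differentiation. In culture, myoblasts that lose serum leave the cell cycle, switch on myogenin, fuse into myotubes and build the contractile apparatus. The same transition lowers many genes of the proliferating, matrix-producing progenitor. A difference between responses can thus arise at the start, in growth medium, or at the end, after 5 days, and both levels are given for each gene described.

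The virus-encoded gene followed the labels. Twist2 (chromosome 1, 91801461 to 91848028, GRCm38) had 1 read in GFP growth and 0 reads in GFP differentiation medium, against 1438 and 674 CPM in the Twist2 libraries. The cells are labelled Twist2-positive, but Twist2 transcript was thus at or under the counting floor of 3 reads without the Twist2 virus. Its own difference of responses is not measurable, because the GFP cells gave almost no reads. The myoblast factor Myod1 was present in every library, at 1184 and 809.7 CPM in GFP cells and 547 and 1068 CPM in Twist2 cells, growth medium first. GFP cells are given before Twist2 cells, and growth before differentiation medium, wherever 4 values follow each other below.

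Of the 3760 genes, 1431 (38.1%) differed by at least 2-fold between the responses. The difference was at least 2-fold higher for 958 genes (25.5%) and at least 2-fold lower for 473 (12.6%), with a median over all genes of 0.19 and quartiles of -0.58 and 1.02. It ran from -4.23 to 6.69, and 292 genes (7.77%) passed 4-fold on the higher and 75 (1.99%) on the lower side. The balance of the calls depended on scaling: 66.9% of them were on the higher side with the deposited CPM, 47.9% after scaling by size factors (medians of ratios) and 34.9% after scaling by unlisted reads, those of each library that fell outside the table. These scalings moved the median difference by -0.29 and -0.52. The counting interval excluded equal responses for 957 of the 958 higher and 443 of the 473 lower genes, and it lay wholly beyond 2-fold for 737 and 272 of them. Closest to the threshold were Exosc5 (1.0006) just inside and Eef2k (0.9977) just outside on the higher side, while on the lower side Cmbl lay on the threshold and Rlim (-0.9983) just outside. Across the listed genes the responses had a Pearson r of 0.81 and a Spearman rho of 0.73, as a description of genes that share libraries and a selection against the GFP growth medium library.

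At a 2-fold threshold 73.2% of genes responded in GFP cells and 50.7% in Twist2 cells, and the responses fell into 5 classes. In the GFP cells alone 1331 genes (35.4%) passed it, and in the Twist2 cells alone 486 (12.9%). Another 1374 (36.5%) passed in both in the same direction, 48 (1.28%) passed in opposite directions, and 521 (13.9%) passed in neither. Passing in one response and not in the other did not by itself mean a large difference. Of the 892 genes that were lower in GFP cells alone, 499 differed by at least 2-fold, and of the 439 that were higher in GFP cells alone, 160 did. Of the 181 genes higher in Twist2 cells alone 99 differed by at least 2-fold, and of the 305 lower there alone 129 did. The opposite class was made of 42 genes that were lower after differentiation of GFP cells and higher after differentiation of Twist2 cells, and of 6 with the reverse pattern. A gene that differed between the Twist2 libraries but lay within 2-fold of GFP growth medium in every library is not in the table, so the Twist2-only class is a count within the authors' selection. The GFP response was itself among the ratios of that selection, and the Twist2 response was not. The shares of genes that responded with each virus, and the GFP-only and Twist2-only classes, are therefore not on an equal footing.

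**Figure D1:**
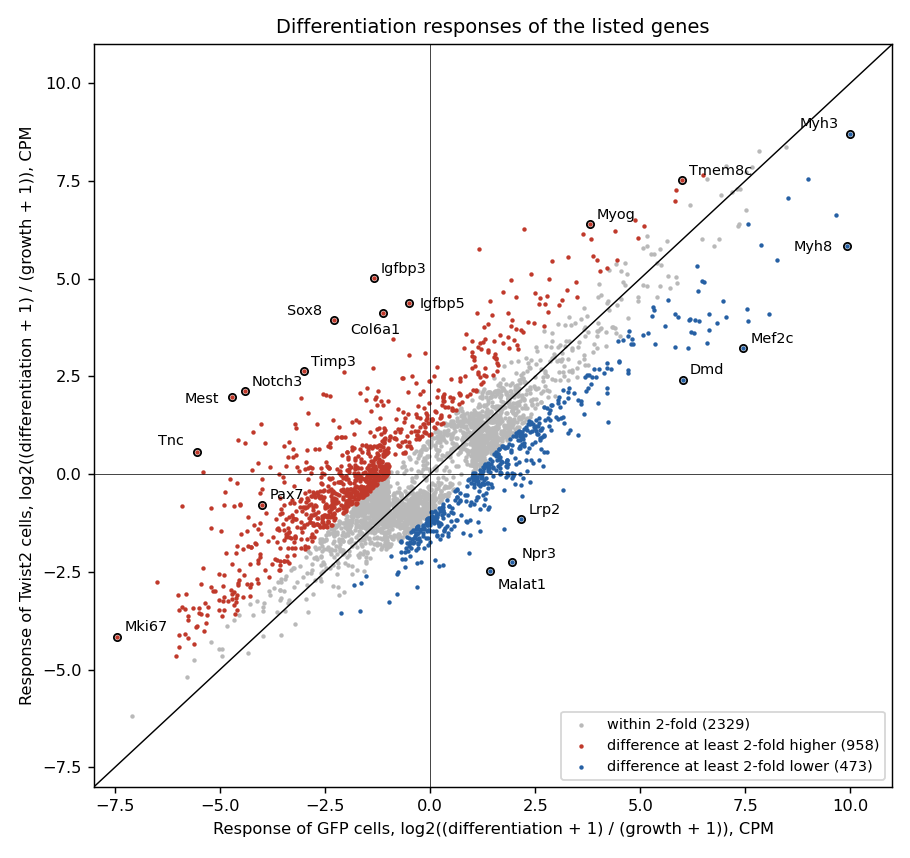
Response of each of 3760 genes in GFP cells (horizontal axis) and in Twist2 cells (vertical axis), as log2 ratios of CPM plus 1, with 1 library per group; the diagonal marks equal responses. The 958 red genes lie at least 2-fold above it and the 473 blue genes at least 2-fold below it, with Mest, Notch3 and Igfbp3 in the quadrant of opposite directions.

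With the deposited CPM, differences were mostly set by the levels after 5 days. The same difference equals the Twist2 to GFP ratio in differentiation medium minus that in growth medium. Of the 958 higher genes, 719 stood at least 2-fold above GFP in differentiation medium without being 2-fold below it in growth medium. For 129 genes the reverse held: the start was at least 2-fold lower with Twist2 and the end was not 2-fold higher. Another 35 genes showed both and 75 neither. Of the 473 lower genes, 387 were set by the end alone, 22 by the start alone and 4 by both. Over all genes, Twist2 cells were at least 2-fold above GFP cells for 4.89% of genes in growth medium and 26.6% in differentiation medium, and at least 2-fold below them for 11.5% and 23.1%. Counts of start and end levels, here and for the lists below, were not recomputed under the other scalings.

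The highest difference belonged to Mest, an imprinted gene expressed from the paternal copy (chromosome 6, 30723547 to 30748465). It went from 793 to 29.1 CPM in GFP cells and from 139 to 548 CPM in Twist2 cells, a difference of 6.69 (counting interval 6.55 to 6.94). Notch3, a receptor of the Notch pathway (chromosome 17, 32120820 to 32166852), followed with 126, 4.98, 71.5 and 313 CPM and a difference of 6.52 (6.35 to 7.26). For both genes the GFP differentiation library was the lowest of the 4, and the Twist2 libraries moved the other way.

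Igfbp3, which encodes a secreted binding protein of insulin-like growth factors (chromosome 11, 7206086 to 7213923), stood at 308, 121, 47.3 and 1553 CPM, a difference of 6.35. Sox8, a transcription factor gene of the SOX family, started at only 8 reads in Twist2 growth medium, with 17.7, 2.82, 0.723 and 25.2 CPM. Its difference was 6.22 with the pseudocount, and the counting interval of the reads without a pseudocount was 6.54 to 9.13. Timp3, an inhibitor of matrix metalloproteinases, had 35.9, 3.57, 15.3 and 99.3 CPM (5.64). Gfra1, the GDNF co-receptor, had 174, 9.75, 135 and 332 CPM (5.32). Together with Mest and Notch3 these 4 genes were the 6 largest of the opposite class.

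The other genes among the 12 highest were Tnc (6.11), Col8a1 (5.46), Piezo2 (5.43), Cxcr4 (5.29), Col6a1 (5.25) and Grik3 (5.21). Piezo2 encodes a mechanically gated ion channel and Grik3 a kainate-type glutamate receptor subunit. Tnc, Col8a1, Piezo2 and Grik3, with the gap junction gene Gja1 (5.08) and the glypican gene Gpc6 (4.73), were the 6 largest of the genes past 2-fold in GFP cells alone. Piezo2 for example went from 58.6 to 1.52 CPM in GFP cells and from 39.7 to 73.1 CPM in Twist2 cells, and Gja1 from 226 to 2.82 and from 473 to 268 CPM. In each of these 6 genes the Twist2 libraries lay within 2-fold of each other, while the GFP differentiation library had under 5 CPM.

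The largest differences of the Twist2-only class were those of Igfbp5 (4.88), Col6a3 (4.33), Pitx3 (3.55), Gpnmb (3.22), Cd82 (3.12) and Sema6a (3.11). Gpnmb, a transmembrane glycoprotein gene, held 32.6 and 29.8 CPM in GFP cells and went from 42.8 to 373 CPM with Twist2. Pitx3, a homeobox factor gene of the muscle lineage, stood at 15.7, 10.7, 5.06 and 48.8 CPM. In the class that changed in the same direction, Islr (4.58), Parm1 (4.04) and Greb1 (3.83) had the largest higher differences. Islr went from 20.7 to 47.9 CPM in GFP cells and from 4.97 to 320.4 CPM in Twist2 cells, so its Twist2 levels were both the lowest and the highest of the 4.

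**Figure D2:**
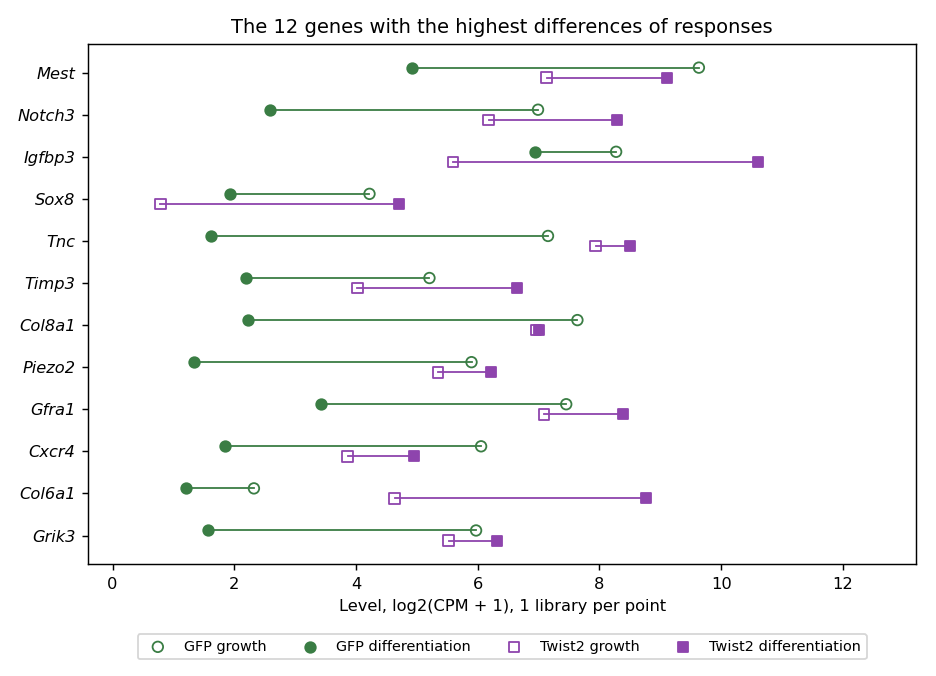
Level of the 12 genes with the highest differences as log2(CPM + 1) in each of the 4 libraries, open symbols for growth and filled symbols for differentiation medium, with a line joining the libraries of each virus. In GFP cells (green circles) every line runs to the left, whereas in Twist2 cells (purple squares) every line runs to the right or, for Col8a1, barely moves.

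Most listed genes of the extracellular matrix had a higher difference. Of 18 listed collagen genes 13 had a difference at least 2-fold higher and 1 lower (median 2.06), against 25.5% and 12.6% of all genes and a median of 0.19. The median was 1.82 with size factors and 1.71 by unlisted reads. In GFP cells 5 collagen genes were at least 2-fold higher and 8 lower after differentiation, near the 32.1% and 41.1% of all genes. In Twist2 cells 13 were higher and 2 lower, against 26.2% and 24.5% of all genes. Col4a1 and Col4a2, the basement membrane chains whose genes lie head to head on chromosome 8, moved together: Col4a1 stood at 1200.1, 142, 927 and 3540.1 CPM (5.00), and Col4a2 at 540.4, 191, 454 and 2105 CPM (3.71). Col4a2 is named here after its values were seen.

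Col6a1, a chain of the microfibrillar collagen VI, was low in GFP cells (4.002 and 1.30 CPM) and went from 23.9 to 433 CPM with Twist2. Col8a1 was the contrary case, with 198 and 3.68 CPM in GFP cells and a level that hardly differed between the Twist2 libraries (124 and 128 CPM). Col5a3 stood at 20.6, 2.71, 65.3 and 274 CPM (4.59). The exception was Col7a1, the anchoring fibril collagen, which was higher after differentiation of GFP cells (4.41 and 17.3 CPM) and lower after differentiation of Twist2 cells (14.4 and 4.77 CPM), a difference of -3.17.

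Matrix glycoproteins gave 18 of 30 genes higher and none lower (median 1.89, or 1.61 and 1.38 under the other scalings). Fibronectin (Fn1), the main cell-adhesive glycoprotein, went from 3248 to 119 CPM in GFP cells and from 5150.4 to 4685 CPM in Twist2 cells (4.62, interval 4.54 to 4.72). Tenascin C (Tnc), an anti-adhesive matrix protein, had 141, 2.06, 244 and 361 CPM. Osteopontin (Spp1) stood at 1242, 221, 917 and 3707 CPM (4.50), and thrombospondin 2 (Thbs2) at 135, 13.6, 321 and 786 CPM (4.50). In all 4 genes the GFP differentiation library was the lowest by more than 4-fold.

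Matrix proteases and their inhibitors gave 15 of 19 genes higher and 2 lower (median 1.79). Tissue plasminogen activator (Plat) stood at 11.3, 0.650, 52.2 and 156 CPM (4.46) and gelatinase A (Mmp2) at 24.7, 1.52, 60.6 and 109 CPM (4.19). The 2 lower genes were the secreted metalloproteinases Adamts1 (-3.25) and Adamts5, which were higher after differentiation with either virus. Adamts5 stood at 25.9, 492, 36.1 and 169.5 CPM, and Adamts1 went from 2.05 to 293 CPM in GFP cells and from 11.3 to 124 CPM in Twist2 cells. Over the collagen, glycoprotein and protease lists together, 46 of 67 genes had a higher difference, and 45 of these 46 stood at least 2-fold above GFP in differentiation medium. Of the 15 fibroblast and fibro-adipogenic marker names chosen for the check of other cell types, 3 were in the table: S100a4, Ly6a and Dcn, which is also a matrix gene. Their summed level was 801 and 372 CPM in GFP cells and 1357 and 779 CPM in Twist2 cells, most of it S100a4 (difference 0.20). Dcn stood apart from this sum, at 1.95, 1.19, 10.6 and 64.6 CPM (2.93). Ly6a (0.61) was at 0 reads in GFP differentiation medium. The part of such cells in the matrix differences was not tested, and in bulk RNA the number of cells of a type and the RNA per cell cannot be told apart.

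Genes of the muscle progenitor were mixed in GFP cells, as were all genes, of which 32.1% were higher after differentiation and 41.1% lower. Of 15 listed satellite cell genes 6 were at least 2-fold higher there and 8 lower. Their summed level, 5771 CPM in GFP and 2912 CPM in Twist2 growth medium, was more than 2-fold higher after differentiation with either virus, with the adhesion receptor gene Itga7 and desmin (Des), both also genes of the mature fibre, at 4966 and 6503 CPM in GFP differentiation medium. Their differences were 0.32 and -0.10, and both are named after their values were seen. Of the 15 genes 10 had a higher difference and none a lower one (median 1.26), against 25.5% and 12.6% of all genes. With size factors 6 were higher (0.98), and by unlisted reads 5 were higher and 1 lower (0.73). Pax7, the defining factor of satellite cells, went from 78.7 to 4.01 CPM in GFP cells and from 60.5 to 34.6 CPM in Twist2 cells (3.20, interval 2.98 to 4.04). Cxcr4, the receptor for the chemokine Cxcl12, stood at 65.5, 2.60, 13.6 and 29.9 CPM (5.29). Cxcl12 itself had 117, 2.92, 204 and 117 CPM (4.11), and its scavenger receptor gene Ackr3 a difference of 3.56. All 3 genes of this chemokine axis were lowest in GFP differentiation medium.

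Notch signalling maintains satellite cells and opposes MyoD. Of its 9 listed genes 5 had a higher difference and none a lower one (median 1.19), against 25.5% and 12.6% of all genes. Under either other scaling 4 were higher (medians 0.88 and 0.65). Among the 6 genes with at least 10 CPM in all libraries 2 were higher (median 0.55). Notch3 and Hey1 are also on the satellite cell list. The ligand Dll1 stood at 67.6, 25.8, 9.49 and 67.9 CPM (4.07). The target Hey1, a repressor of the helix-loop-helix class, stood at 12.6, 2.27, 6.87 and 47.1 CPM (4.67), and the ubiquitin ligase gene Dtx4 had a difference of 1.84. For ligand and target the Twist2 growth library was lower than the GFP growth library and the Twist2 differentiation library was level with it or higher, so a low start and a high end added up. The remaining 4 genes, the effector Rbpj, the ligands Jag1 and Jag2 and the target Hes1, were within 2-fold (0.17 to 0.74).

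The insulin-like growth factor list includes the imprinted gene Mest (6.69), described above. Of its 11 genes 9 had a higher difference and none a lower one, against 25.5% and 12.6% of all genes. The median was 1.74, or 1.44 and 1.20 under the other scalings. Of these 9, 7 started at least 2-fold lower with Twist2 in growth medium. Igfbp5, an abundant binding protein of differentiating muscle, was 5739 and 4025 CPM in GFP cells and went from 813 to 16858 CPM with Twist2 (4.88, interval 4.85 to 4.92). H19, the imprinted noncoding RNA next to Igf2, stood at 11102, 29045, 2328 and 20176 CPM (1.73). Igf2 had a difference of 1.77 and Igf1 of 1.61, and both are named with H19 after their values were seen. The receptors Igf1r (0.63) and Igf2r (0.96) stayed under the threshold.

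Cell cycle genes were lower after differentiation with either virus, but less so with Twist2. In GFP cells every one of the 43 listed mitosis genes and the 31 listed genes of DNA replication was at least 2-fold lower (medians -4.72 and -2.37), against 41.1% of all genes. In Twist2 cells all 43 mitosis genes (median -3.34) but 14 of the 31 replication genes (median -0.93) were at least 2-fold lower, against 24.5% of all genes. Of the names on these lists 43 of 46 and 31 of 45 were in the table. The authors' selection used the GFP response and not the Twist2 response, so these counts are not on an equal footing. How far this selection shaped the differences was not tested. The difference was at least 2-fold higher for 27 of 43 mitosis genes (median 1.39) and 22 of 31 replication genes (median 1.44), and lower for none in either list. All of these 49 genes stood at least 2-fold above GFP in differentiation medium, and none started 2-fold lower. Under the other scalings the medians were 1.17 and 1.21 for mitosis, with 1 and 3 genes lower, and 1.16 and 0.98 for replication. With a pseudocount of 5 CPM the mitosis median was 0.31, and among the 5 mitosis genes with at least 10 CPM in all libraries it was 0.39 with none higher.

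Mki67, the proliferation marker, went from 248 to 0.433 CPM (4 reads) in GFP cells and from 411 to 22.00 CPM in Twist2 cells (3.28, interval without pseudocount 3.57 to 6.83). Top2a, which untangles DNA in mitosis, stood at 276, 3.36, 386 and 44.6 CPM (2.90), cyclin A2 (Ccna2) at 95.2, 1.19, 167 and 22.9 CPM (2.64), and the spindle factor Tpx2 had a difference of 2.50. For replication, the helicase subunit Mcm3 stood at 34.1, 5.96, 41.6 and 38.7 CPM (2.24), so its level in Twist2 cells hardly differed between media. Chaf1b (2.78) and Chaf1a (2.27), which deposit histones behind the fork, and the methylation reader Uhrf1 (2.57) had the other large values. The end levels were low in GFP cells, and the count for mitosis genes depended on the pseudocount: it was 32 of 43 with 0.1 CPM and 5 of 43 with 5 CPM, and it was 10 of the 25 genes that reached 1 CPM in all libraries. For replication genes the counts were 25 and 12 of 31, and 17 of 25.

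Among 13 regulators of cell cycle exit, 6 had a higher and 1 a lower difference (median 0.74), against 25.5% and 12.6% of all genes. Cyclin D1 (Ccnd1), which drives entry into S phase, went from 700.0 to 29.99 CPM in GFP cells and from 732 to 254 CPM in Twist2 cells (2.98), and cyclin D2 (Ccnd2) stood at 255, 162, 214 and 643 CPM (2.23). The antiproliferative gene Btg2 had a difference of 2.28. E2f7, a repressor of the E2F family, had 0 reads in GFP differentiation medium and 7.28 CPM in Twist2 differentiation medium, a difference of 2.53 whose counting interval starts at 3.55. The inhibitor Cdkn1a (p21), named after its values were seen, differed by only 0.54, whereas the related gene Cdkn2b (p15) was the lower one (-1.54).

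The lowest differences were those of genes that were strongly higher after differentiation of GFP cells and less so, or lower, in Twist2 cells. Mef2c, a transcription factor of late muscle differentiation (chromosome 13, 83504034 to 83667080), had 5 and 2 reads in GFP and Twist2 growth medium and reached 264 and 10.03 CPM after differentiation. Its difference was -4.23 with the pseudocount, but the counting interval of the reads, -5.84 to 0.19, included 0. What the reads do fix is the end level, where the Twist2 to GFP log2 ratio was -4.59. The perinatal myosin heavy chain Myh8 (-4.09) started from 1 and 5 reads, and the muscle calpain Capn3 (-3.96) from 1 and 4. After differentiation Myh8 reached 1072 CPM with GFP against 82.02 CPM with Twist2, and its interval was -11.41 to -2.68. The connexin gene Gja5 had 0 reads in both growth libraries, so no ratio of responses can be given, and its value of -3.32 is the ratio of its levels in differentiation medium, 186 and 17.7 CPM, with the pseudocount.

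Genes with more reads gave narrower intervals. Npr3, the clearance receptor for natriuretic peptides (chromosome 15, 11839896 to 11907287), stood at 14.4, 58.6, 29.5 and 5.42 CPM, a difference of -4.20 (-4.93 to -4.01). Malat1, an abundant nuclear noncoding RNA, stood at 1339.7, 3610.2, 1317 and 236 CPM (-3.90, interval -3.97 to -3.85). Both were in the opposite class, as was the endocytic receptor gene Lrp2 (-3.33). Dystrophin (Dmd), which links the cytoskeleton to the matrix, went from 3.08 to 261 CPM in GFP cells and from 4.88 to 30.4 CPM in Twist2 cells (-3.59), and the cGMP-dependent kinase Prkg1 from 1.44 to 462 and from 2.17 to 46.6 CPM (-3.66). Fsd1l (-3.57), with 13.4, 128, 11.4 and 8.33 CPM, was higher in GFP cells alone. Adamts1 and Col7a1, described above, completed the 12 lowest.

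**Figure D3:**
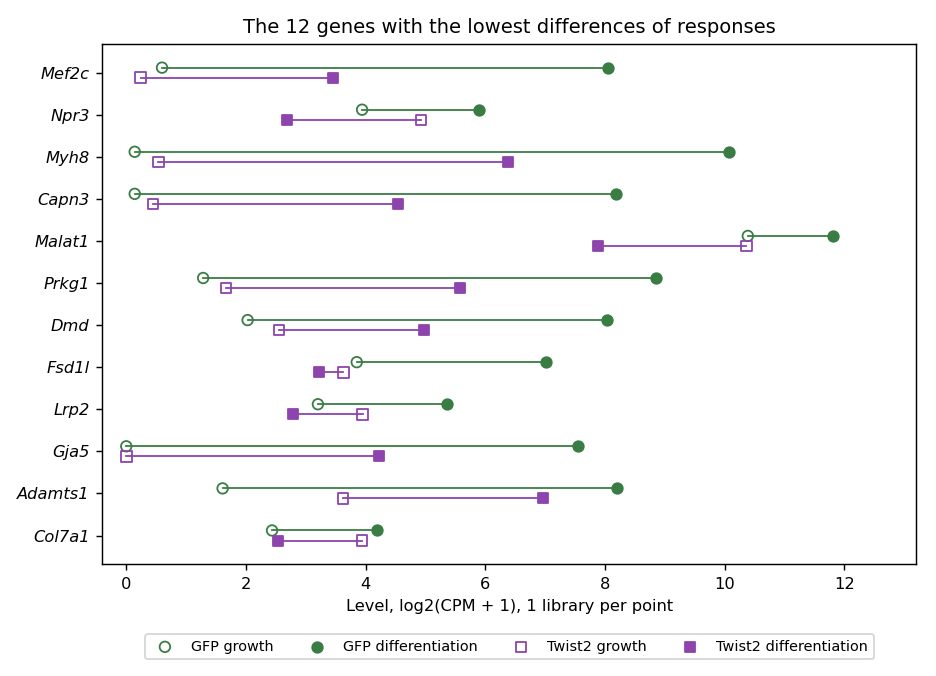
Level of the 12 genes with the lowest differences as log2(CPM + 1) in each of the 4 libraries, drawn as for the highest genes. All 12 GFP lines run to the right, and the Twist2 differentiation library lies left of the GFP differentiation library in every gene, with a log2 ratio of -4.59 for Mef2c.

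Muscle genes had differences on both sides, and the balance depended on scaling. The muscle lists, which pool regulators, filaments, Z-disc and M-band, calcium handling, the neuromuscular junction, fusion and metabolism, held 129 genes. Of these, 34 had a higher and 26 a lower difference, against 25.5% and 12.6% of all genes, so the share of higher genes was near that of the table. The counts were 20 and 38 with size factors, 12 and 45 by unlisted reads, 18 and 38 with a pseudocount of 5 CPM, and 47 and 23 with 0.1 CPM. Whatever their difference, 81 of the 129 genes were at least 2-fold lower with Twist2 in growth medium, against 11.5% of all genes. In differentiation medium 93 of the 129 were, against 23.1% of all genes. Of the 34 higher genes 30 started at least 2-fold below GFP in growth medium, against 164 of the 958 higher genes of the table. Only 3 of the 34 ended at least 2-fold above GFP, against 754 of the 958, and 28 still ended below the GFP level. All 26 lower muscle genes ended at least 2-fold below GFP, against 391 of the 473 lower genes of the table. None of the 26 had started 2-fold above GFP. These levels are the terms of the difference itself and describe how it is made up.

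Myogenin (Myog), which commits myoblasts to differentiation (chromosome 1, 134289989 to 134292548), went from 76.4 to 1075 CPM in GFP cells and from 3.52 to 378 CPM in Twist2 cells. Its difference was 2.59 (interval 2.46 to 3.43) although both Twist2 levels were the lower of their medium. Among 16 myogenic regulators 7 had a higher and 2 a lower difference (median 0.34), but 5 and 6 with size factors and 4 and 6 by unlisted reads (median -0.20). The methyltransferase Smyd1, needed for sarcomere assembly, stood at 66.2, 648, 5.60 and 311 CPM (2.29), and Hes6, a cofactor of muscle differentiation, had a difference of 2.00. Myod1 differed by 1.51 and ended slightly above the GFP level with the deposited CPM (log2 ratio 0.40). That end ratio was not recomputed under the other scalings. Besides Mef2c the lower gene was Vgll3 (-1.62), a cofactor of TEAD factors, with 124, 397, 82.9 and 85.7 CPM.

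All 25 listed filament genes were at least 2-fold higher after differentiation with either virus (medians 6.64 and 6.01), against 32.1% and 26.2% of all genes. Their differences had a median of 0.19, equal to that of all genes and below 0 under both other scalings (-0.10 and -0.42), with 4 higher and 7 lower. Tnnt1, the slow troponin T, had the highest (2.52), with 54.8, 688, 4.70 and 402 CPM. The lower side held 4 myosin heavy chains. Myh1, of fast fibres, reached 210.4 CPM with GFP against 23.8 CPM with Twist2 (-3.03, interval -4.87 to -1.05), and the embryonic chain Myh3 stood at 25.9, 27313, 5.06 and 2528 CPM (-1.28). Myh7, of slow fibres and heart, had a difference of -2.02 and is named after its values were seen, as the remaining chain beside Myh8. The thin filament gene Lmod2 (-2.94) had 1 read in Twist2 growth medium, and its interval of -4.57 to 4.41 included 0. Reads of closely related myosins may have been divided between the copies in the authors' counting.

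Z-disc and M-band genes had 7 of 30 higher, below the 25.5% of all genes, and 9 lower (median -0.35). The counts were 5 and 13 with size factors (median -0.64) and 1 and 15 by unlisted reads (-0.89), while the median was 0.37 with a pseudocount of 0.1 CPM and 0.35 among the 22 genes with at least 1 CPM in every library. Pdlim3, a scaffold of the Z-disc, stood at 92.6, 356, 5.06 and 186 CPM (3.02), and Klhl41, which stabilises thin filaments, had a difference of 1.62. Against them stood alpha-actinin 2 (Actn2), at 1219 CPM after differentiation with GFP against 144 CPM with Twist2 (-3.02, interval -5.02 to -0.78), and calsarcin 1 (Myoz2), which had 0 and 1 reads in the growth libraries and an interval without a lower bound (-2.96). Its upper bound was 2.56.

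Of 18 genes of excitation-contraction coupling 8 had a higher and 1 a lower difference (median 0.55). This balance turned to 2 higher and 3 lower with size factors, 1 and 4 by unlisted reads (median -0.02) and 1 and 3 with a pseudocount of 5 CPM (median -0.08). Stac3, which couples the calcium channel of the membrane to that of the store, stood at 143, 299, 29.1 and 202 CPM (1.69). The calcium release channel Ryr3 had a difference of 1.35. The lower gene was the calcium store protein Casq2 (-1.45), at 3.69, 1709, 1.45 and 324 CPM. The calcium-binding protein gene Hrc (1.14) had 9 reads in Twist2 growth medium, and its sign turned with a pseudocount of 5 CPM.

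At the neuromuscular junction 4 of 11 genes were higher and 2 lower (median 0.58), against 25.5% and 12.6% of all genes. Under either other scaling 3 were higher and 3 lower. The fetal acetylcholine receptor subunit Chrng stood at 193, 804, 15.1 and 373 CPM (2.49) and the delta subunit Chrnd at 122, 745, 10.8 and 264 CPM (1.89). Dok7, which activates the kinase MuSK, had a difference of 1.64. The neuregulin receptor Erbb3 was on the lower side (-2.01), at 330.1 CPM after differentiation with GFP against 37.3 CPM with Twist2, as was Colq (-1.50), the collagen tail of acetylcholinesterase, whose interval of -2.18 to 1.22 included 0. For the receptor subunits the start was about an order of magnitude lower with Twist2 and the end remained below GFP.

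Fusion genes had 4 of 12 higher, against 25.5% of all genes, and none lower (median 0.56). With size factors 2 were higher, and by unlisted reads 1 was higher and 1 lower (median -0.02). Myomaker, listed as Tmem8c, is the membrane protein that drives myoblast fusion (chromosome 2, 27061636 to 27072179). It stood at 45.6, 2972, 4.25 and 963 CPM (1.53), again with both Twist2 levels below those of GFP. The adhesion gene Kirrel had a difference of 2.14, M-cadherin (Cdh15) of 1.28 and the fusion guanine exchange factor Dock1 of 1.19. Muscle metabolism had 5 of 17 genes lower and none higher (median -0.32), but this depended on the pseudocount. With 0.1 CPM 5 were higher and 5 lower (median -0.16), and with 5 CPM 8 were lower and none higher (median -0.96). The insulin-regulated glucose transporter Slc2a4 reached 78.7 CPM with GFP against 22.2 CPM with Twist2 (-1.73, interval -4.08 to 0.79, which included 0), and hexokinase 2 (Hk2) stood at 21.3, 113, 23.9 and 38.1 CPM (-1.70). The muscle cytochrome oxidase subunit Cox6a2 (-1.70) and glycogen synthase Gys1 (-1.25) were lower too.

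**Figure D4:**
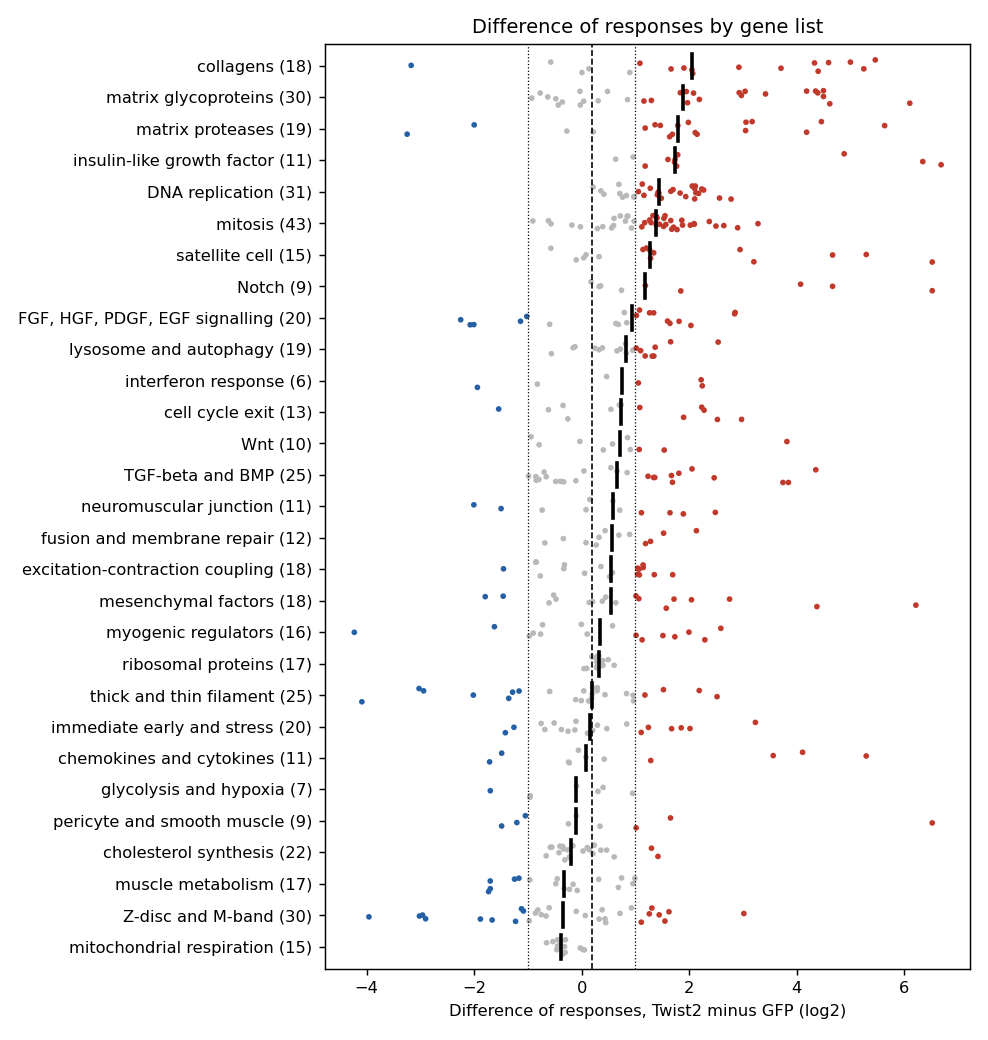
Difference of responses (horizontal axis, log2, Twist2 minus GFP) of each listed gene in the 29 lists with at least 5 genes in the table, ordered by median; black bars are list medians, the dashed line is the median of all genes (0.19) and dotted lines mark 2-fold. Collagens, matrix glycoproteins and matrix proteases lie highest (medians 2.06, 1.89 and 1.79), and muscle lists spread to both sides.

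Signalling lists were mixed, against 25.5% of all genes with a higher and 12.6% with a lower difference. In the TGF-beta and BMP list 11 of 25 genes had a higher difference and none a lower one (median 0.66), but 4 were lower with size factors, and 9 higher and 8 lower by unlisted reads. The activin subunit Inhbb stood at 48.7, 1.62, 82.9 and 89.7 CPM (4.36) and the secreted glycoprotein Fstl1 at 306, 11.04, 987 and 558 CPM (3.85). Id3 (3.75) and Id2 (2.47), BMP targets that sequester helix-loop-helix factors, were lower after differentiation with either virus, Id3 from 421 to 3.68 CPM in GFP and from 592 to 87.2 CPM in Twist2 cells.

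Among 20 genes of receptor tyrosine kinase signalling 10 were higher and 5 lower (median 0.93), and 6 and 6 by unlisted reads. The feedback inhibitor Spry2 (2.86) and the ligand Pdgfc (2.85) led the higher side, with 82.8, 22.7, 85.6 and 175 CPM for Pdgfc. The receptor Erbb2 (-2.25), at 33.05, 206, 50.1 and 64.2 CPM, and the ligand Fgf7 (-2.07) led the lower side with Erbb3. Of 10 Wnt pathway genes 3 were higher, near the 25.5% of all genes, led by the nuclear effector Lef1 (3.82, 81.1, 6.82, 29.8 and 40.4 CPM) and the receptor Fzd4 (1.54). None was lower, but 2 were higher and 2 lower under either other scaling. Fzd7, the receptor at the other end of this list, had a difference of -0.94, and the repressor Tcf7l1 of 1.07.

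Among 11 chemokine and cytokine genes, which include the Cxcl12 axis, the prostaglandin synthase Ptgs2 (-1.71) and Il15 (-1.49) were lower. The list as a whole had 4 higher and 2 lower, against 25.5% and 12.6% of all genes (median 0.08, or -0.12 by unlisted reads). Mesenchymal factors had 8 of 18 higher and 2 lower (median 0.54), against 25.5% and 12.6% of all genes, but 6 and 5 by unlisted reads (median 0.04). Sox4 stood at 107, 3.46, 80.5 and 68.9 CPM (4.38), cadherin 11 (Cdh11) at 73.7, 11.4, 245 and 273 CPM (2.75), and Sox9 had a difference of 2.04. The corepressor Runx1t1 (-1.79) and the T-box factor Tbx18 (-1.46) were lower. Runx1t1 went from 0.513 to 4.33 CPM in GFP cells and stood at 13.3 and 13.5 CPM in Twist2 cells. Immediate early and stress genes had 6 of 20 higher and 2 lower, near the 25.5% and 12.6% of all genes (median 0.16, and below 0 under both other scalings). Ddit4, an inhibitor of mTORC1 signalling, stood at 47.9, 18.7, 60.4 and 232 CPM (3.23), followed by Fos (2.02), Fosl1 (1.85) and Ier2 (1.67), while Klf4 (-1.42) and Herpud1 (-1.26) were lower. Of 6 interferon response genes 3 were higher, Tap1 (2.22) and H2-D1 (1.05) among them, and Ifit2 was lower (-1.94), against 25.5% and 12.6% of all genes. Under either other scaling 2 were higher and 2 lower.

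Lists of general cell functions differed among themselves. Of 19 lysosome and autophagy genes 8 had a higher difference and none a lower one, against 25.5% and 12.6% of all genes. The median was 0.83, or 0.53 and 0.29 under the other scalings, and by unlisted reads 2 were higher and 1 lower. Of the 19 genes 16 were at least 2-fold higher after differentiation of Twist2 cells, against 26.2% of all genes, and 6 after that of GFP cells, near the 32.1% of all genes. The carboxypeptidase cathepsin A (Ctsa) stood at 142, 133, 158 and 469 CPM (1.66), and Gla had a difference of 1.37 and cathepsin L (Ctsl) of 1.34. Of 22 genes of cholesterol and fatty acid synthesis 20 were at least 2-fold higher after differentiation in GFP cells and all 22 in Twist2 cells. Yet only Sqle (1.42) and Srebf2 (1.30) differed by 2-fold and the median was -0.19. Under the other scalings the median was -0.48 and -0.73, and 3 genes were lower by unlisted reads. None of the 15 listed respiratory chain genes (median -0.39, or -0.69 and -0.93 under the other scalings) differed by 2-fold, but 2 were lower by unlisted reads. None of the 17 ribosomal protein genes (median 0.32, or 0.01 and -0.22 under the other scalings) differed by 2-fold. Of 7 glycolysis and hypoxia genes the single gene past 2-fold was Hk2. Egln3, a hypoxia-induced prolyl hydroxylase, had a difference of 0.95, and 3 genes were lower under either other scaling.

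Long transcripts and several noncoding RNAs had lower differences. Over 5 groups of genes by the longest annotated transcript, the median difference was 0.39, 0.38, 0.25, 0.09 and -0.21 from shortest to longest, and 21.5% of the 750 longest genes (6235 bp or more) had a lower difference, against 8.11% of the 752 shortest. A higher difference was found for 18.9% of the longest and 25.9% of the shortest genes. In the same groups the median Twist2 response was 0.47, -0.06, -0.37, -0.33 and -0.51. The median GFP response showed no steady course, at -0.12, -0.62, -0.69, -0.40 and -0.27. Neat1, Meg3, Kcnq1ot1 and Rian, noncoding RNAs named after their values were seen, had differences of -2.58, -2.56, -1.88 and -1.75. Neat1, which scaffolds nuclear paraspeckles, held 891 and 720.2 CPM in GFP cells and went from 1110.3 to 149 CPM in Twist2 cells, so that, as for Malat1, the Twist2 differentiation library stood apart. Not all noncoding RNAs did so: of 40 listed long noncoding genes 11 were lower and 11 higher, against 12.6% and 25.5% of all genes. The part of transcript length or nuclear RNA content in the differences of Dmd, Lrp2 or other long genes was not tested.

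**Figure D5:**
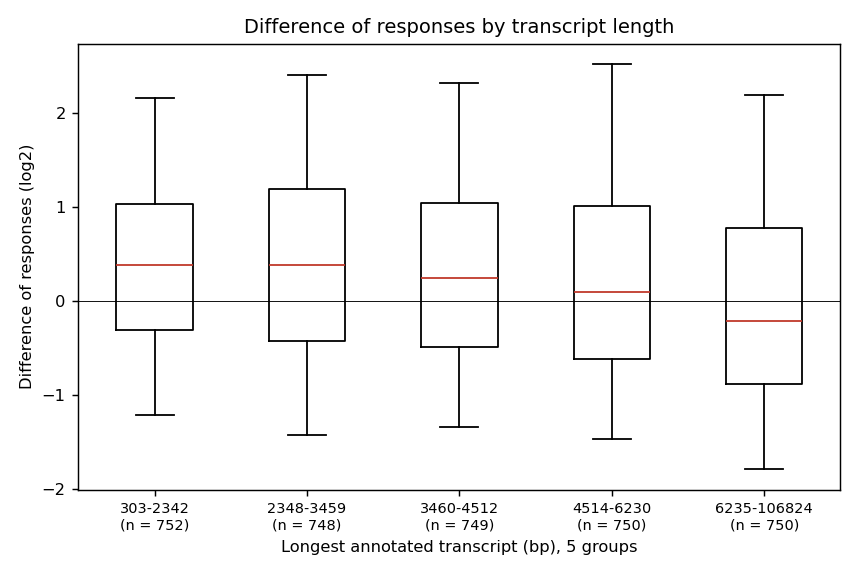
Difference of responses (vertical axis, log2) by length of the longest annotated transcript in 5 groups of 748 to 752 genes; red lines are medians, boxes quartiles and whiskers the 5th and 95th percentiles over genes. The median goes from 0.39 in the shortest to -0.21 in the longest group.

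Because Twist2, MyoD and myogenin bind E-boxes, the promoters of the genes were searched for the letters CANNTG, in a RefSeq table (GRCm38.p6) that runs from 250 bases before to 50 bases after each start. The upstream stretches of 250 bases are shown to let the ends of the ranking be compared: the 2 highest and the 2 lowest genes of the 12 at each end that had a single start in the table and no annotated exon in the stretch. They lie at chr17:32166891-32167140 (Notch3, minus strand), chr11:7213924-7214173 (Igfbp3, minus strand), chr11:67276874-67277123 (Myh8, plus strand) and chr19:5802673-5802922 (Malat1, minus strand), and capitals mark CANNTG.
Notch3: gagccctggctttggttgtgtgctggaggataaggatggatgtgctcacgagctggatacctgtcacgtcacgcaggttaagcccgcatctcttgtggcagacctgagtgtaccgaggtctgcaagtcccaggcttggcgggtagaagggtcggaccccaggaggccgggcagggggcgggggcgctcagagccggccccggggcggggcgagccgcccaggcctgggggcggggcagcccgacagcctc
Igfbp3: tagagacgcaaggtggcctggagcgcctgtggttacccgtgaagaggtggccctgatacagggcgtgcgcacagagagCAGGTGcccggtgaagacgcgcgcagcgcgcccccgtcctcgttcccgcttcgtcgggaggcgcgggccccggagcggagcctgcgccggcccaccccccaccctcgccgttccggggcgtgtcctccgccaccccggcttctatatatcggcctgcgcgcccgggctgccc
Myh8: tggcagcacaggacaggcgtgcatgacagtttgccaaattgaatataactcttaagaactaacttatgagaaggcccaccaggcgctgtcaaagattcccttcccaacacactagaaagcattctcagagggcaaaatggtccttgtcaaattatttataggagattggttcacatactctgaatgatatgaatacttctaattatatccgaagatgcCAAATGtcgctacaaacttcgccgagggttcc
Malat1: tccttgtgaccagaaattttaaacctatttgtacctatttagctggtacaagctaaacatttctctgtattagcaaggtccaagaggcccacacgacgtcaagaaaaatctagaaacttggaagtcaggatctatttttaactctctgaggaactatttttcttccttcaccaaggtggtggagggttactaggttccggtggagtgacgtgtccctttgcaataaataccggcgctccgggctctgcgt

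Igfbp3 and Myh8 held 1 match each, CAGGTG and CAAATG, and the other stretches none, so a match was present or absent at either end. Over whole windows CANNTG was found in 64.9% of 935 windows of genes with a higher difference, 68.2% of 488 windows of genes with a lower one and 63.4% of 2445 windows of genes in between, against 72.3% of all 32851 windows. The form CAGCTG, which MyoD-type factors favour, was in 19.7%, 17.0% and 17.0%, against 16.3% of all windows. The forms CATATG and CAGATG, the latter read on both strands, were in 1.82%, 1.03% and 2.04% and in 10.2%, 11.3% and 11.7%, against 3.92% and 17.1% of all. CANNTG includes the other 3 forms. The CATATG shares rest on 17 windows of higher and 5 of lower genes. All of these shares describe letters in this window only.

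Markers of other cell types were few in the table. None of the 12 endothelial and none of the 16 leukocyte names was listed, which does not show them to be unexpressed. Of 12 glia and neuron names, Tubb3 (0.34) and Stmn2 (1.67) were listed, with summed levels of 96.6, 10.5, 107 and 20.4 CPM, and of 11 adipocyte names Lpl (2.13, from 1.26 to 20.6 CPM in Twist2 cells). Of 17 pericyte and smooth muscle names 9 were listed, with 3 higher and 3 lower (median -0.10). Rgs5, a pericyte marker, stood at 51.7, 0.108, 85.1 and 4.69 CPM (1.65), with 1 read in GFP differentiation medium, and the contractile genes Tagln (-1.21) and Smtn (-1.49) were lower.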

How the data were processed

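RNA of the 4 cultures was sequenced, per the labels. Tools and a build appear without a role in the submitters' processing notes, as TopHat2 2.0.0, DESeq2 1.6.3 and GRCm38 (mm10). Which read counter, annotation and strand setting were used is not given in the sources used here. What the authors deposited is a table of 3760 genes with the CPM of each library, scaled to its total reads. Their 3 deposited log2 columns, per the file headers ratios against GFP growth medium, equal log2 ratios of CPM + 1 within 1.3e-11 and served only as that check, and a deposited flag column was not used. Every listed gene reaches 10 CPM in at least 2 libraries and 2-fold in at least 1 deposited ratio. Genes outside this selection were not analysed here.

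CPM values were whole multiples of 1 read within 0.001 reads, which gave totals of 9744075 (GFP growth), 9235281 (GFP differentiation), 11068073 (Twist2 growth) and 12362290 (Twist2 differentiation). Listed genes took 39.3%, 65.1%, 36.9% and 47.2% of them. With 1 library per group no count model was fitted. The 95% interval is that of the ratio of ratios of reads, without a pseudocount: the exact conditional odds ratio interval where any of the 4 read numbers was under 50, otherwise the normal form on the log scale. Reads carry no molecular identifiers, so intervals cover counting error only. The calculation was tested on simulated counts (Python 3.11.15, numpy 2.4.6, scipy 1.17.1). Positions and transcript lengths come from GENCODE M21 (GRCm38), which matched 3607 symbols directly and 142 through an older symbol.

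The genes, 34 lists (1074 names, 506 genes in the table) and rules were chosen with earlier results of these data known. The lists share genes, so the 506 genes made 523 list entries. Notch3, for example, counts in the Notch, satellite cell and pericyte lists. The text names, by rule, the check genes (Twist2, Myog, Myod1, Myh3, Pax7, Tmem8c), the 12 highest and 12 lowest differences, the 6 largest of each response class, and up to 4 members of each list with the largest differences plus up to 2 that go 2-fold against its median. Alternatives were pseudocounts of 0.1 and 5 CPM, size factors, scaling to reads outside the table, minimum CPM filters, other fold thresholds and centring. Some genes that this rule names are not reported here.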

Additional observations from a re-analysis of the deposited data

Results flagged for a closer look

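The differences listed here drew attention because the responses ran in opposite directions, each by at least 2-fold, in the GFP and the Twist2 cells. There were 48 such genes, with 1 library per group, and the difference was not tested. Among named genes, those lower after differentiation of GFP cells and higher after differentiation of Twist2 cells were Mest (difference 6.69), Notch3 (6.52), Igfbp3 (6.35), Sox8 (6.22), Timp3 (5.64), Gfra1 (5.32), Cxcr4 (5.29), Col6a1 (5.25), Col4a1 (5.00), Hey1 (4.67), Col5a3 (4.59), Spp1 (4.50), Thbs2 (4.50), Plat (4.46), Dll1 (4.07), Ddit4 (3.23) and Pdgfc (2.85). Those with the reverse pattern were Npr3 (-4.20), Malat1 (-3.90), Lrp2 (-3.33) and Col7a1 (-3.17). Groups of 1 library allow no search for outlying samples.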

How the results depend on the processing

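Directions and sides of the 2-fold threshold were compared under other pseudocounts, scalings, filters and thresholds. Of 133 named genes with a 2-fold difference, all kept their direction under each alternative that could include them, except Hrc, which turned to -0.20 with a pseudocount of 5 CPM. They stayed past 2-fold in 120 cases by unlisted reads, 121 with 5 CPM, 127 with size factors and 132 with 0.1 CPM. Of the 190 list medians recomputed, 20 moved by more than 1.5-fold and none with a median beyond 2-fold changed sign. The counts moved more. Genes with a lower difference numbered 779 with size factors and 1066 by unlisted reads, where the higher ones numbered 572. Among genes with at least 10 CPM in all libraries the counts were 464 higher and 303 lower, and at 4-fold 292 and 75. Centring on the median of all genes gave 788 and 647, and centring within transcript length groups, chosen after seeing the data, 786 and 633. The GFP-only class held 735 genes by unlisted reads and 760 at 1.5-fold, where the same-direction class held 2203, the opposite class 145 and neither 129. Among genes with at least 10 CPM throughout, the same-direction class held 648 and the opposite class 19. Genes past the threshold in neither response numbered 993 with a pseudocount of 5 CPM, 891 with size factors and 1177 by unlisted reads. With 5 CPM, higher differences set by differentiation medium alone numbered 476 and lower ones set by growth medium alone 12. Fewer genes, a changed threshold, a compressed low range or shifted medians follow from how these alternatives are built. No paired analysis was possible because each group has a single library, and no replicate could be left out. Genes with few reads limit what depth allows: 3557 of 3760 genes had at least 10 reads in every library.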

Other observations

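The opposite class held further genes that the lists do not cover, named here after their values were seen. Mycl, a MYC family gene, stood at 224 and 23.7 CPM in GFP cells and at 27.01 and 62.3 CPM in Twist2 cells (difference 4.36). Mrc2, an endocytic collagen receptor, stood at 36.3, 4.76, 303 and 737 CPM (3.97). On the other side Pdlim1, a cytoskeletal adaptor gene, stood at 52.4, 121, 141 and 50.7 CPM (-2.65). Mycl was thus lower with Twist2 only in growth medium, whereas Mrc2 was higher in both media.

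By chromosome, 23 of 166 listed genes on X had a higher difference (13.9%) and 43 a lower one (25.9%). On the 19 autosomes the shares ran from 15.6% to 31.8% and from 7.30% to 16.9%. The median difference on X was -0.28, that on chromosome 16 was -0.30, and the other autosomes lay above them, up to 0.50. The median of the longest transcript was 4204 bp for X genes and 3976 bp for all genes.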
